A study of Homo sapiens with 4 samples.

Results

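The ABC transporter family comprises membrane pumps and related proteins that bind and hydrolyze ATP, and its 48 genes on the array were examined here in A2780s clones labelled as knockouts of the glycosyltransferase GALNT3, or of GALNT3 with its homolog GALNT6. The members were all the genes on the array whose symbol starts with ABCA, ABCB, ABCC, ABCD, ABCE, ABCF or ABCG followed by a number; they were read by 73 probes on 82 spots, out of 29116 named genes and 41000 probes in all. A2780s is an established human epithelial ovarian cancer (EOC) cell line. By the labels, total RNA of each knockout (KO) clone carried Cy5 and was hybridized together with Cy3-labeled RNA of a mock-transfected A2780s control clone (Ctrl) on a two-channel Agilent whole human genome array, 4 arrays on 1 slide in all. The GALNT3 KO group held 2 clones, in which GALNT3 was targeted by CRISPR/Cas9. The GALNT3/T6 KO group also held 2 clones, derived from GALNT3 KO clones by stable expression of shRNA against GALNT6, so that these clones also differ from the GALNT3 KO clones by viral transduction and a further puromycin selection. The Ctrl cells carry neither change, and no array compared Ctrl RNA with Ctrl RNA or, by the labels, exchanged the dyes, so a dye-bound difference common to all arrays and a difference between the RNAs cannot be told apart. Each replicate is 1 clone.

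ABC proteins share a nucleotide-binding domain whose ATP hydrolysis drives substrates across a membrane. In ovarian cancer they are best known for efflux of drugs: ABCB1 (P-glycoprotein) and ABCG2 export anthracyclines and topoisomerase inhibitors, and ABCB1 also taxanes, and the ABCC proteins export glutathione and glucuronide conjugates. Other members move cholesterol and phospholipids (most of the A and G subfamilies), fatty acids into peroxisomes (D) or peptides and heme-related compounds at mitochondria and lysosomes (the smaller B transporters), while the E and F proteins span no membrane and act on ribosomes.

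On the pair of arrays labelled GALNT3/T6 KO, the probe of GALNT3 gave log2 ratios of KO over Ctrl of 4.80 and 5.04 (30.3-fold higher, limma adjusted p = 7.32e-05), which goes against the label, while both channels of the GALNT3 KO arrays read it near background, so that it checks nothing there, and a loss of GALNT3 RNA was shown in neither group. The dyes are given by the labels, with Cy5 for the KO clone on every array, while the methods name the 2 dyes only as opposite; arrays of different groups correlated at 0.196 to 0.318 over all genes. The directions, ranks and differences below rest on these labels, and if the dyes of the GALNT3/T6 KO-labelled arrays were exchanged, every sign on them would turn, ABCG2 would be their lowest member and ABCB6 their highest, and each difference between the groups would become a sum, so that other members could lead; these arrays are therefore named by their label throughout. GALNT6 gave -0.46 and -0.41 on the GALNT3 KO arrays and -0.67 and -0.70 on the GALNT3/T6 KO-labelled arrays (limma adjusted p = 0.045 and 0.003). Of the epithelial ovarian markers, 7 of 9, among them KRT18 with 5.36 and 5.92, were called higher on the GALNT3/T6 KO-labelled arrays (24.1% of all genes). Upon GALNT3 KO 0 of 9 were called higher (3.78% of all genes). The median log2 ratio of these markers was 0.03 and 0.10 for the GALNT3 KO clones and 1.06 and 1.33 on the other arrays. The Ctrl channel of KRT18 itself read 10.60 and 10.34 (log2 intensity) on the GALNT3 KO arrays and 13.42 and 12.60 on the others. That of CDH1 read 7.46 and 7.52, then 7.46 and 7.33. The Ctrl reading thus differed between the groups for some genes, and the reason was not tested. Of the markers of other cell types, 2 of 5 of fibroblasts (COL1A1, PDGFRB) were called higher on the GALNT3/T6 KO-labelled arrays. So were 1 of 5 of leukocytes (CD68) and 2 of 3 of endothelial cells (VWF, KDR). Called lower were 2 of 5 of fibroblasts and 1 of 5 of leukocytes, where 22.8% of all genes were. The defining leukocyte marker PTPRC gave 0.06 and 0.06 there and CD14 0.05 and 0.09. PECAM1 was not tested because its probe did not pass the filter. The part of these shifts in the results below was not tested. In bulk RNA, fewer cells of a type and less RNA per cell cannot be told apart.

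The sequences below show what was read for the members on which most turns. First come array probes of 60 bases that lie across an exon junction (13 of the 73 member probes match an hg19 interval longer than the probe itself), given 5′ to 3′ as the array files give them. ABCB1 is shown as the best-known drug pump, ABCC4 and ABCA7 because the KO groups differed from each other, and ABCB6, ABCD3 and ABCF2 because the 2 probes of each differed in size or direction; no base is marked.
ABCB1, chr7:87135313-87138603, minus strand: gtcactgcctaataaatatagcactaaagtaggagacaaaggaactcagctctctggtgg
ABCC4, chr13:95813571-95815416, minus strand: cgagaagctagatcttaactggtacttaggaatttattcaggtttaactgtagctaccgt
ABCA7, chr19:1064196-1064932, plus strand: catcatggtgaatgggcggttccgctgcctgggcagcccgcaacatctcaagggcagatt
ABCB6, dimmer probe, chr2:220075003-220075144, minus strand: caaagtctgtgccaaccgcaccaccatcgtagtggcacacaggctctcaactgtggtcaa
ABCD3, dimmer probe, chr1:94941292-94946020, plus strand: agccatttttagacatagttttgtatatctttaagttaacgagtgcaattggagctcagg
ABCF2, brighter probe, chr7:150911266-150912012, minus strand: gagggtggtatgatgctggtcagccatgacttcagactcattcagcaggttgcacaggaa

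The promoters of the members with the largest rise and the largest fall, ABCG2 and ABCB6, follow from RefSeq (GRCh38.p14; 300 bases, from 250 before to 50 after the annotated start, on the strand of the gene). RefSeq gives 5 start sites for ABCG2, of which 1 of the 2 windows with the most matches is printed. Capitals mark GCGTG, the core of the element bound by AHR with ARNT, or its complement CACGC, the E-box CACGTG, and TGACNNNGC, the core of the antioxidant response element. In ABCB6 the E-box and the TGACNNNGC match overlap and form 1 run of capitals.
ABCG2, chr4:88158810-88159109, minus strand: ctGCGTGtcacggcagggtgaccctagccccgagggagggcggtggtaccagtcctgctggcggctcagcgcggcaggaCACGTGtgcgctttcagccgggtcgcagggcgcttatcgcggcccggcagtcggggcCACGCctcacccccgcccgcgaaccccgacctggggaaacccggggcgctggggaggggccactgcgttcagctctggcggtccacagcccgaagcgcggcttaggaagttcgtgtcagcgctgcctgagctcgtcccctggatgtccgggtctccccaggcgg
ABCB6, chr2:219218909-219219208, minus strand: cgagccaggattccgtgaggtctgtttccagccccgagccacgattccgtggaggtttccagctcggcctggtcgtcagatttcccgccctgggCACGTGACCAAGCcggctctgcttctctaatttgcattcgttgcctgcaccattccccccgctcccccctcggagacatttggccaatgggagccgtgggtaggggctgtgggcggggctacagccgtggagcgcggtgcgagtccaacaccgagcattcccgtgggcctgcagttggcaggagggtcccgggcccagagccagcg

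Over both strands, GCGTG lay in 36.5% of all 35116 promoter windows of the table, TGACNNNGC in 13.3% and CACGTG in 7.26%. Of the 35 members with a window, GCGTG lay in 18, against 40.6% of all genes with a window. The ABCG2 window held 2 matches to GCGTG and 1 to CACGTG, and the ABCB6 window held 1 match to CACGTG and 1 to TGACNNNGC. These matches are letters in a window and not measured sites. The perfect direct repeat bound by LXR with RXR was in the window of 0 of 35 members and in 0.02% of all windows.

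Across the family, fewer members passed the test upon GALNT3 KO than on the GALNT3/T6 KO-labelled arrays. Of the 48 genes, 44 had a probe that both arrays of a group read well above background in the same or another channel, and the brightest such probe stood for the gene. A gene was called at a limma adjusted p of at most 0.05, adjusted over all 27219 genes tested. Upon GALNT3 KO, 7 of 44 members were called (15.9%), all 7 lower and 0 higher, where 9.31% of all genes were called (5.53% lower, 3.78% higher). At an unadjusted p of at most 0.05, 6 members were higher and 12 lower (17.9% and 16.6% of all genes). By the methods' t-test after adjustment 0 members were called in either direction, where 0 of all genes were. On the GALNT3/T6 KO-labelled arrays, 26 of 44 were called (59.1%), 9 higher and 17 lower, where 46.8% of all genes were called (24.1% higher, 22.8% lower). The median log2 ratio of the members was -0.02 and -0.06 in these comparisons, beside 0.02 and 0.03 over all genes tested. By the criterion of the study (an unadjusted p up to 0.05 with a change of 1.5-fold or more) 0 members were higher and 6 lower upon GALNT3 KO, where 3.04% of all genes were higher and 6.19% lower, and 4 were higher and 11 lower on the GALNT3/T6 KO-labelled arrays, where 14.4% and 17.1% of all genes were.

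The counts rest on few arrays. Without either GALNT3 KO array, 0 members were called lower upon GALNT3 KO (lowest adjusted p 0.29 without replicate 1 and 0.395 without replicate 2), where 0% of all genes were called, and on the GALNT3/T6 KO-labelled arrays the calls were 4 higher and 11 lower, where 30.7% of all genes were called. Without either GALNT3/T6 KO-labelled array, GALNT3 KO gave 4 higher and 11 lower, where 31.6% of all genes were called.

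**Figure D1:**
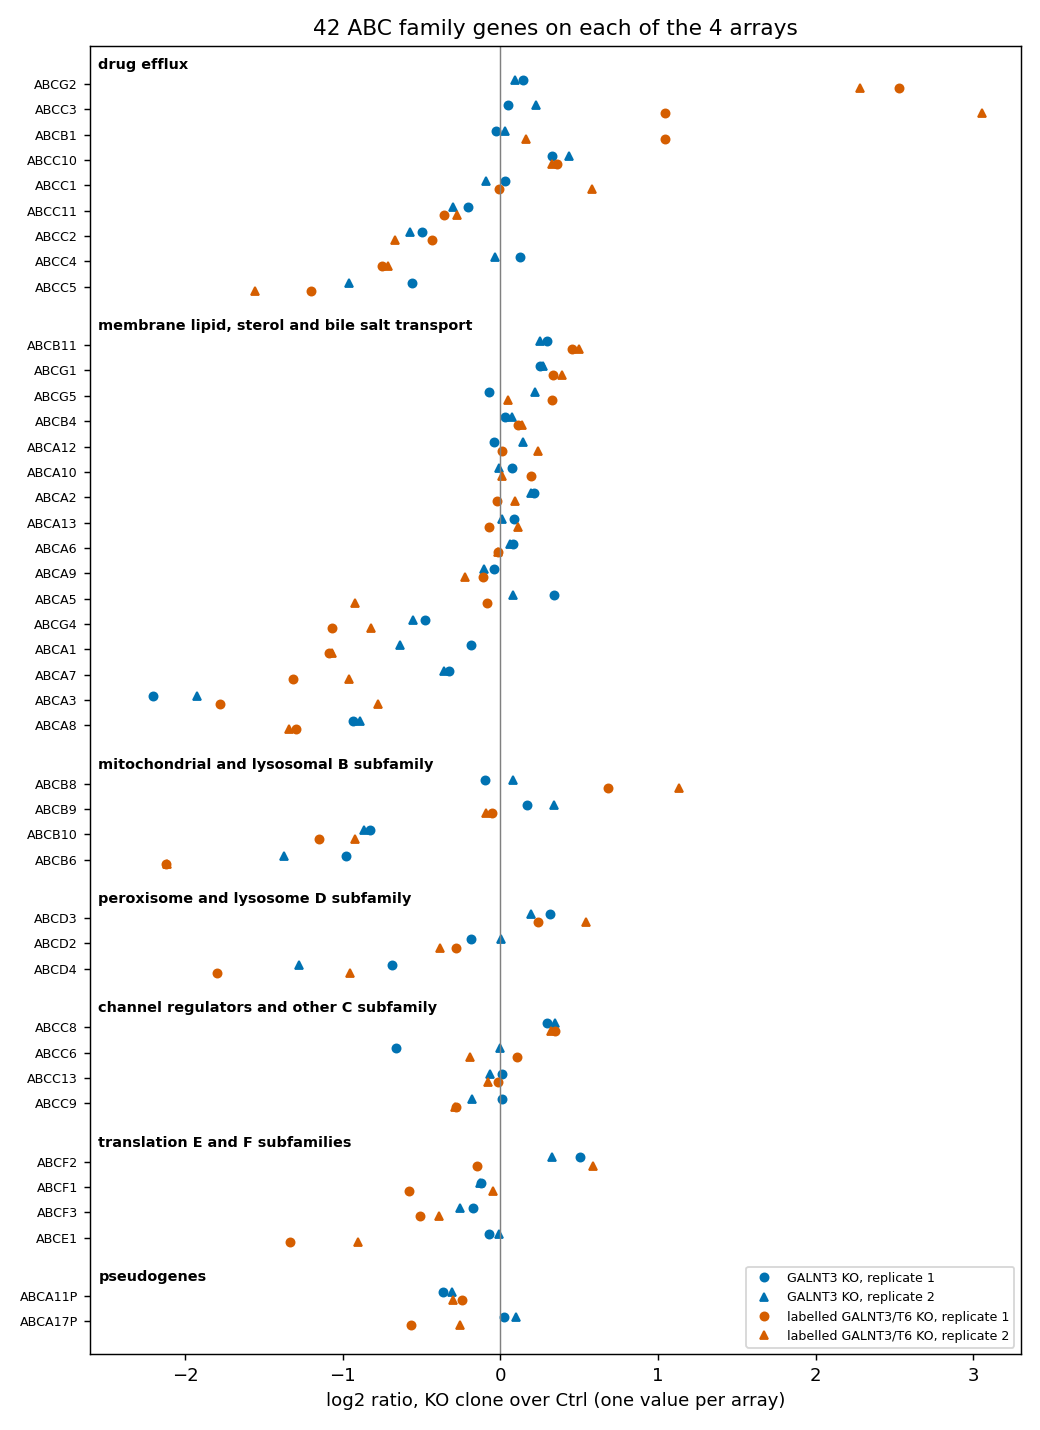
Log2 ratios of KO over Ctrl (x axis) of 42 ABC family genes tested, 1 point per array, grouped by role and ordered by their mean on the GALNT3/T6 KO-labelled arrays. Circles are replicate 1 and triangles replicate 2; ABCG2 and ABCC3 lie far to the right on the GALNT3/T6 KO-labelled arrays, ABCB6 far to the left, and ABCA3 is lowest upon GALNT3 KO.

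Among the drug efflux pumps, ABCG2 rose most. ABCG2, the breast cancer resistance protein, gave log2 ratios of 0.14 and 0.10 on the GALNT3 KO arrays and of 2.53 and 2.28 on the GALNT3/T6 KO-labelled arrays (probe at chr4:89013426-89013485, hg19). After the mean of both channels was scaled between arrays by quantiles, its Ctrl signal was nearly level over the 4 arrays. It read 10.40, 10.13, 10.38 and 10.12 on the log2 intensity scale, while the KO signal of ABCG2 was 10.54, 10.23, 12.91 and 12.40. On this scale the shift lay in the KO channel. The mean of 2.41 ± 0.10 (limma SE, n = 2) on the GALNT3/T6 KO-labelled arrays is 5.3-fold (limma adjusted p = 1.52e-04). GALNT3 KO gave 0.12 ± 0.10 (limma adjusted p = 0.428). This SE, like those below, comes from a spread that limma estimates over all 4 arrays, and is not that of the 2 clones alone. ABCG2 was read by 1 probe.

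ABCC3, which exports bile salts and glucuronides, was also called higher on the GALNT3/T6 KO-labelled arrays, with unequal clones. It gave 0.05 and 0.23 upon GALNT3 KO and 1.04 and 3.06 on the other arrays. The mean on the latter was 2.05 ± 0.47 (limma SE, n = 2), or 4.14-fold (limma adjusted p = 0.0218). Replicate 2 was the higher by far, and the call was lost when either GALNT3 KO array was left out (adjusted p = 0.084 both times). ABCC10, a multidrug resistance protein that acts on taxanes, gave 0.33, 0.44, 0.36 and 0.33 (GALNT3 KO replicates 1 and 2, then of the GALNT3/T6 KO label), nearly 1 value on all 4 arrays; it was called on the GALNT3/T6 KO-labelled arrays (adjusted p = 0.0273) and not upon GALNT3 KO (adjusted p = 0.0574).

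ABCB1 and ABCC1, the longest-known multidrug pumps, were called in neither group. ABCB1 gave -0.03 and 0.03 upon GALNT3 KO and 1.04 and 0.16 on the GALNT3/T6 KO-labelled arrays, each the mean of 10 spots (limma adjusted p = 0.998 and 0.0761). Replicate 1 alone stood out, at a low signal: its KO channel read 8.95 on the log2 intensity scale against 7.81, 7.83 and 7.80 on the other 3 arrays. ABCC1 gave 0.03 and -0.09, then -0.01 and 0.58 (limma adjusted p = 0.902 and 0.197), and here replicate 2 was the higher. The clones thus differed for ABCB1 and ABCC1 in opposite order.

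Among the drug pumps, 4 were lower on the GALNT3/T6 KO-labelled arrays. ABCC5, an exporter of cyclic nucleotides and nucleotide analogs, gave -0.56 and -0.96 upon GALNT3 KO and -1.20 and -1.56 on the other arrays, and both means were called (limma adjusted p = 0.0469 and 0.00208). ABCC2, the apical exporter of conjugates and of platinum complexes, gave -0.50, -0.57, -0.44 and -0.67, again called in both groups (adjusted p = 0.0442 and 0.0103). All 4 arrays were below 0 for ABCC2 and ABCC5. ABCC4, which exports cyclic AMP and prostaglandins, was called on the GALNT3/T6 KO-labelled arrays alone: 0.13 and -0.04 upon GALNT3 KO against -0.75 and -0.71 (adjusted p = 0.00326). ABCC11, an exporter of lipophilic anions, gave -0.20, -0.30, -0.36 and -0.27 at a signal near background (adjusted p = 0.0365 on the GALNT3/T6 KO-labelled arrays, where its KO channel was well above background on 1 of 2 arrays). The probe of ABCB5 was well above background in neither channel of any array.

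In all, 0 of the 9 drug pumps tested rose and 2 fell upon GALNT3 KO, and 3 rose and 4 fell on the GALNT3/T6 KO-labelled arrays. Over all genes tested, 3.78% were called higher and 5.53% lower upon GALNT3 KO, and 24.1% and 22.8% on the other arrays. The median log2 ratio of the drug pumps was -0.00 and 0.29, beside 0.02 and 0.03 over all genes tested. Under Agilent's own log ratios the second median was -0.05, and without replicate 2 of that group it was -0.01, so the list as a whole had no stable direction.

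**Figure D2:**
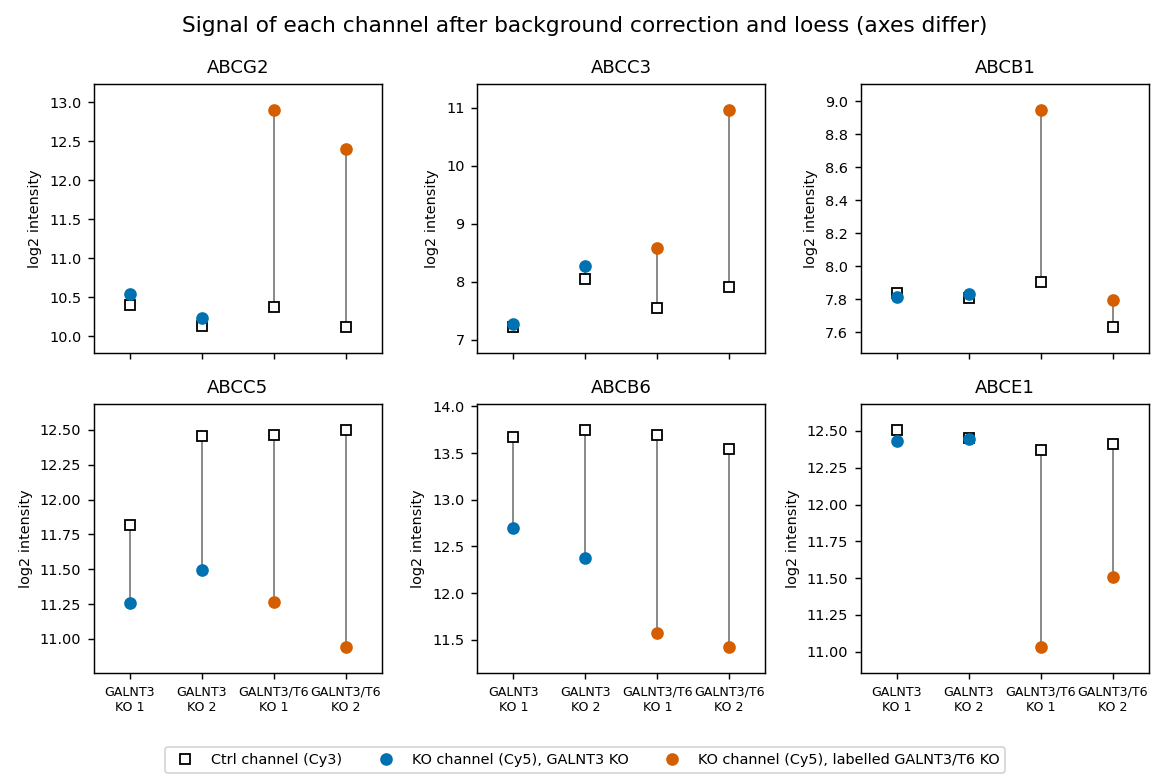
Log2 intensity (y axis, a separate range for each gene) of the Ctrl channel (open squares) and the KO channel (filled circles) on the 4 arrays for 6 members. The mean of both channels was scaled between arrays by quantiles. For ABCG2 and ABCE1 the Ctrl channel is nearly level and the KO channel moves on the GALNT3/T6 KO-labelled arrays; for ABCB1 only replicate 1 of that group stands out.

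Of the 16 lipid transporters tested, 2 were called higher and 5 lower on the GALNT3/T6 KO-labelled arrays, where 24.1% and 22.8% of all genes were. There, 8 of the means lay above 0 and 8 below. Upon GALNT3 KO 0 were called higher and 3 lower, where 3.78% and 5.53% of all genes were. ABCA3, the lamellar body phospholipid transporter, was the most reduced member upon GALNT3 KO: it gave -2.20 and -1.92 there and -1.78 and -0.78 on the GALNT3/T6 KO-labelled arrays (limma adjusted p = 0.0245 and 0.0137; 4.18-fold and 2.43-fold lower; probe at chr16:2326263-2326322). ABCA8, a transporter of the A subfamily linked to cholesterol efflux, gave -0.94 and -0.89, then -1.30 and -1.34 (adjusted p = 0.0145 and 4.38e-04). The call of ABCA3 on the GALNT3/T6 KO-labelled arrays was lost when either GALNT3 KO array was left out (adjusted p = 0.0604 both times). The ratios of replicates were close for ABCA8 and wide apart for ABCA3 on the GALNT3/T6 KO-labelled arrays. ABCG4, which moves sterols to lipoproteins, gave -0.48 and -0.56, then -1.07 and -0.82 (adjusted p = 0.0476 and 0.00207).

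ABCA1 and ABCA7 were called on the GALNT3/T6 KO-labelled arrays only. ABCA1, which loads cholesterol onto apolipoprotein A-I, gave -0.19 and -0.64 upon GALNT3 KO and -1.09 and -1.07 on the other arrays. The mean on the latter was -1.08 ± 0.13 (limma SE, n = 2), with a limma adjusted p of 0.00312, and of 0.105 upon GALNT3 KO. ABCA7, a homolog of ABCA1 known for phospholipid export and uptake of debris, gave -0.33 and -0.36, then -1.31 and -0.96 (adjusted p = 0.0018). For both genes every array was below 0 with the brightest probe. The difference between the KO groups was called for ABCA7 (adjusted p = 0.0267) and not for ABCA1 (adjusted p = 0.0634).

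A pair of lipid transporters was slightly higher. ABCB11, the bile salt export pump, gave 0.30, 0.25, 0.45 and 0.50 (adjusted p = 0.00945 on the GALNT3/T6 KO-labelled arrays). ABCG1, which exports cholesterol to high density lipoprotein, gave 0.25, 0.27, 0.34 and 0.39 (adjusted p = 0.0213), and its representative probe matches a GenBank entry only, whereas its RefSeq-matched probe gave 0.15, 0.40, 0.29 and 0.31 and was not called (adjusted p = 0.0598 over all probes). ABCG1 thus moved little and the other way from ABCA1, with which it shares control by LXR receptors. Of the 18 genes of this group 16 were tested. Upon GALNT3 KO 0 rose and 3 fell, where 3.78% of all genes were called higher and 5.53% lower. On the GALNT3/T6 KO-labelled arrays 2 rose and 5 fell, where 24.1% and 22.8% of all genes were. The medians of the group were 0.05 and 0.00 (log2). The other 9 members tested (ABCA2, ABCA5, ABCA6, ABCA9, ABCA10, ABCA12, ABCA13, ABCB4 and ABCG5) were called in no comparison with their brightest probe and lay between -0.92 (ABCA5, replicate 2 of the GALNT3/T6 KO-labelled arrays) and 0.34. The dimmer probe of ABCA5, a lysosomal transporter, gave 0.28, -0.10, -0.47 and -0.93 (limma adjusted p = 0.0189 on the GALNT3/T6 KO-labelled arrays, over all probes). ABCG8 was not well above background in any channel, and ABCA4 passed in 1 KO channel alone, on replicate 2 of the GALNT3/T6 KO-labelled arrays, with a log2 ratio of 1.11 against 0.19 on replicate 1.

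The mitochondrial and lysosomal B transporters moved in both directions. ABCB6, which carries porphyrins at the outer mitochondrial membrane and in lysosomes, was the most reduced member on the GALNT3/T6 KO-labelled arrays: it gave -0.98 and -1.37 upon GALNT3 KO and -2.12 and -2.12 there (probe at chr2:220074498-220074557). Its Ctrl signal stayed between 13.54 and 13.75 (log2 intensity). The means of -1.18 ± 0.12 and -2.12 ± 0.12 (limma SE, n = 2 each) were called in both groups (limma adjusted p = 0.0191 and 3.48e-04). ABCB10, a mitochondrial inner membrane protein needed for heme synthesis, gave -0.83 and -0.86, then -1.15 and -0.92 (adjusted p = 0.0227 and 0.00138). Both genes tied to heme thus fell in both groups.

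ABCB8 was called higher on the GALNT3/T6 KO-labelled arrays. ABCB8, a mitochondrial protein linked to iron export, gave -0.10 and 0.08, then 0.68 and 1.13 (limma adjusted p = 0.962 and 0.0062). It was read by 1 probe at a low signal, with Ctrl at 7.58, 7.63, 7.65 and 7.82 (log2 intensity). ABCB9, the lysosomal peptide transporter, gave 0.17, 0.34, -0.05 and -0.09 and was called in no comparison.

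In the D subfamily, ABCD4, which moves vitamin B12 out of lysosomes, was reduced. It gave -0.69 and -1.27 upon GALNT3 KO and -1.80 and -0.95 on the GALNT3/T6 KO-labelled arrays, with widely spaced clones in both groups, and only the second mean was called (limma adjusted p = 0.071 and 0.0107). ABCD2, a peroxisomal importer of long fatty acids, gave -0.19, 0.00, -0.28 and -0.38 at a signal near background (adjusted p = 0.0418 on the GALNT3/T6 KO-labelled arrays). ABCD3, an abundant peroxisomal membrane protein, gave 0.31, 0.20, 0.24 and 0.55 (adjusted p = 0.0389).

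Of the remaining C subfamily, 4 of 5 genes were tested. ABCC8, the sulfonylurea receptor of pancreatic potassium channels, gave 0.29, 0.35, 0.34 and 0.32, nearly 1 value on all arrays (limma adjusted p = 0.072 and 0.0277). ABCC9, its vascular counterpart, gave 0.01, -0.18, -0.28 and -0.29 and was not called. ABCC6, known for its loss in pseudoxanthoma elasticum, was not called with its brightest probe (-0.66, -0.00, 0.11 and -0.19). Its second probe gave -0.14, -0.35, -0.49 and -0.46 and was called lower on the GALNT3/T6 KO-labelled arrays (adjusted p = 0.0135 over all probes), and the third gave -0.04 and -0.32 there without a call. ABCC6 has near-identical pseudogene copies, so that its signal is uncertain. ABCC13 was not called, and the probe of ABCC12 was not well above background in any channel.

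The E and F proteins work in translation, and ABCE1 fell on the GALNT3/T6 KO-labelled arrays. ABCE1, which splits ribosomes after termination, gave -0.07 and -0.01 upon GALNT3 KO and -1.34 and -0.90 on the other arrays. The mean of ABCE1 on the latter was -1.12 ± 0.13 (limma SE, n = 2), or 2.17-fold lower (limma adjusted p = 0.00266). The second probe of ABCE1 gave -0.29, -0.55, -1.51 and -1.28, so both probes were lower on the GALNT3/T6 KO-labelled arrays. ABCF3 gave -0.17, -0.25, -0.51 and -0.39 (adjusted p = 0.0135). ABCF1, which binds the initiation factor eIF2, gave -0.12, -0.13, -0.58 and -0.05 and was not called. Of the 4 genes, 0 rose and 2 fell on the GALNT3/T6 KO-labelled arrays (median -0.38), where 24.1% and 22.8% of all genes did. Upon GALNT3 KO 0 were called (median -0.08), where 9.31% of all genes were. The pseudogenes ABCA17P (0.02, 0.10, -0.57 and -0.26) and ABCA11P (-0.36, -0.31, -0.24 and -0.30) were called lower on the GALNT3/T6 KO-labelled arrays (adjusted p = 0.033 and 0.0493).

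Of the members, 17 had more than 1 probe, and several pairs differed. For ABCF2, an ATPase of the translation group, the brighter probe gave 0.51, 0.33, -0.15 and 0.59, and the dimmer one -0.09, -0.28, -0.73 and -0.56 (limma adjusted p = 0.00586 over all probes on the GALNT3/T6 KO-labelled arrays), so that its direction is not settled. ABCD3 rose with both probes on the GALNT3/T6 KO-labelled arrays, by 0.24 and 0.55 with the brighter and by 1.34 and 1.27 with the dimmer one. The fall of ABCA1 was smaller with its second probe (-0.31 and -0.30 on the GALNT3/T6 KO-labelled arrays) and had no one sign with the third (0.26 and -0.22), which matches an Ensembl transcript only. The probes of ABCC9 (-0.28 and -0.29, -0.19 and -0.02, -0.08 and 0.20 on the same arrays) and of ABCC13 (-0.02 and -0.08, 0.11 and 0.08) also lay on both sides of 0, all without a call.

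In other genes the probes differed in size. The second probe of ABCC5 gave -0.06, -0.40, -0.09 and -0.11, close to 0 where the brighter probe was lowest. The second probe of ABCC2 was the lower one, at -1.86, -1.79, -1.87 and -1.95. The second probe of ABCB6 gave -0.34, -0.24, -1.11 and -1.01. For ABCC4 the second probe followed the first (-1.05 and -0.98 on the GALNT3/T6 KO-labelled arrays) and the third, the dimmest, did not (-0.06 and 0.08). For ABCB10, 3 of the 4 probes were below 0 on every array, and the dimmest gave 0.03 and 0.17 on the GALNT3/T6 KO-labelled arrays.

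**Figure D3:**
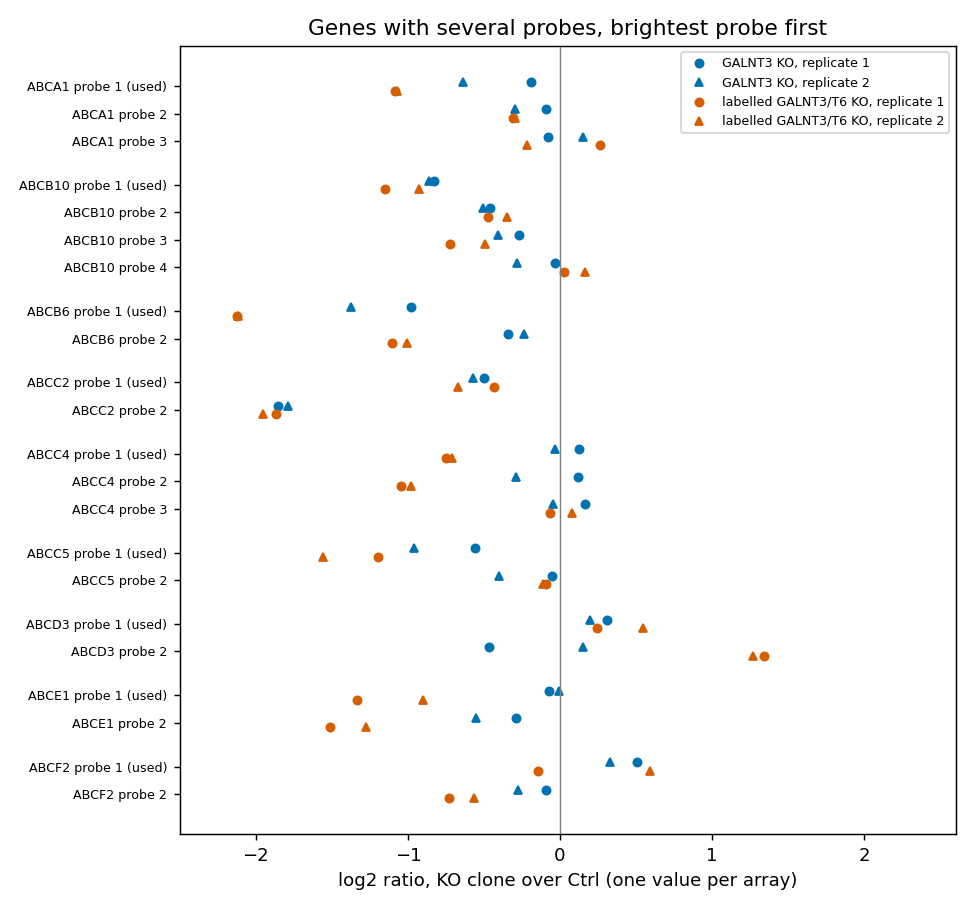
Log2 ratios of KO over Ctrl (x axis) on each array for every probe past the filter of 9 genes with several probes, the brightest first; "used" marks the probe that stands for the gene. Both probes of ABCE1 and of ABCB6 lie to the left on the GALNT3/T6 KO-labelled arrays, while the brighter probe of ABCF2 lies to the right of 0 on 3 of 4 arrays and the dimmer one to the left on all.

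The KO groups were next compared with each other, which compares the arrays by label alone. In this contrast 6 of 44 members were called (13.6%), 2 higher and 4 lower on the GALNT3/T6 KO-labelled arrays, where 23.6% of all genes were called (11.9% higher, 11.7% lower). ABCG2 (2.29 ± 0.14, log2 difference ± SE; limma adjusted p = 8.92e-04) and ABCB8 (0.92 ± 0.19; adjusted p = 0.0294) were higher. ABCE1 (-1.08 ± 0.18), ABCB6 (-0.94 ± 0.17), ABCA7 (-0.79 ± 0.16) and ABCC4 (-0.77 ± 0.13) were lower, with adjusted p = 0.0153, 0.0191, 0.0267 and 0.0138. ABCC3 had the second largest difference, 1.91 ± 0.66, and was not called (adjusted p = 0.112). Without GALNT3 KO replicate 1, or without replicate 2, 1 member was called higher and 0 lower, where 5.40% and 6.07% of all genes were called. Without either GALNT3/T6 KO-labelled array there were 4 to 5 higher and 7 to 9 lower, where 31.3% and 31.9% of all genes were called.

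**Figure D4:**
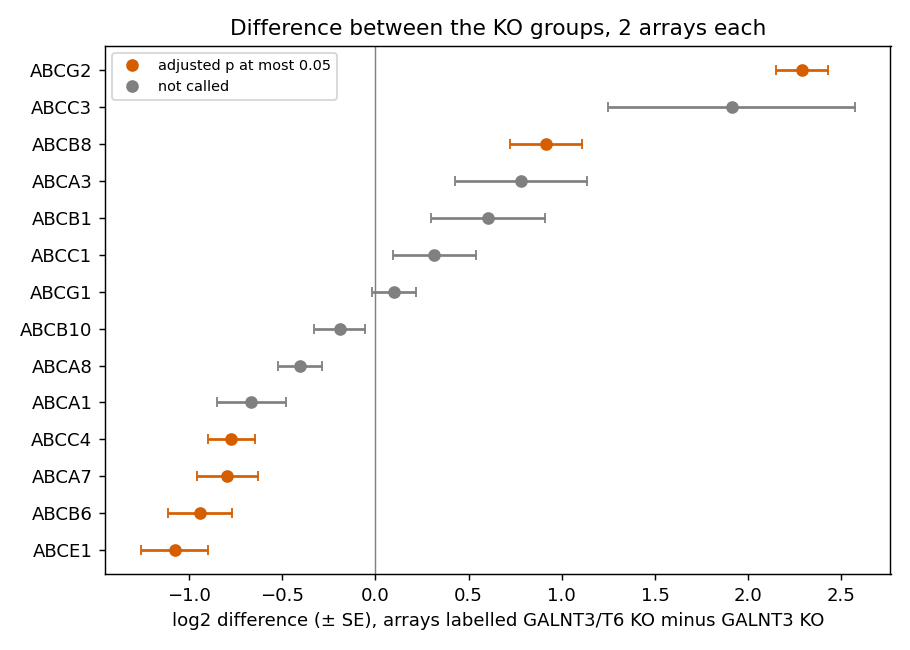
Log2 difference between the GALNT3/T6 KO-labelled arrays and the GALNT3 KO arrays (x axis; bars are the limma SE, 2 arrays per group) for the 6 members called in this contrast (orange) and 8 others (grey). ABCG2 lies at 2.29 with a short bar, and ABCC3 at 1.91 with a long one.

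Several rises on the GALNT3/T6 KO-labelled arrays were small and depended on the normalization. ABCC8, ABCC10, ABCG1, ABCD3 and ABCB11 lay between 0.33 and 0.48 on the log2 scale, and each of them lost its call under Agilent's own log ratios; all but ABCB11 also lost it with median centring in place of loess. ABCG2, ABCC3 and ABCB8, at 2.41, 2.05 and 0.91, kept theirs under both. Among the falls there, ABCA11P and ABCF3 lost their call under Agilent's log ratios (adjusted p = 0.855 for ABCA11P, at a log2 ratio of -0.03), and ABCA17P, ABCC11 and ABCD2 with median centring. All 5 of these also lost it when either GALNT3 KO array was left out. Of the 7 falls upon GALNT3 KO, ABCA8 alone was still called under Agilent's log ratios (its limma adjusted p lay between 5.51e-04 and 0.395 over all alternatives, the methods' t-test included).

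The superfamily also holds 3 genes under other names. TAP1, which loads peptides for antigen presentation together with TAP2, gave 0.37 and 0.27 upon GALNT3 KO and 1.25 and 1.52 on the GALNT3/T6 KO-labelled arrays (limma adjusted p = 0.112 and 7.58e-04). TAP2 was called there at 0.47 and 0.24 (adjusted p = 0.0421), and CFTR, the chloride channel, was not (0.27 and 0.17). The ratio of TAP1 was the larger on both arrays.

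Regulators known to act on the drug pumps were examined as a list of 8. AHR, the dioxin receptor, gave 0.03 and -0.05 upon GALNT3 KO and 3.01 and 3.18 on the GALNT3/T6 KO-labelled arrays (8.55-fold, limma adjusted p = 8.28e-05), while its partner ARNT gave -0.55 and -0.08 there and was not called. NFE2L2, the oxidative stress factor NRF2, was called higher in both groups (0.93 and 0.90, then 0.30 and 0.66), and its inhibitor KEAP1 was lower on the GALNT3/T6 KO-labelled arrays (-0.95 and -0.62, adjusted p = 0.00488). The xenobiotic receptors NR1I2 and NR1I3 stayed within 0.18 of 0 on every array. Of the 8, 1 rose upon GALNT3 KO, where 3.78% of all genes were called higher. On the GALNT3/T6 KO-labelled arrays 2 rose and 1 fell, where 24.1% and 22.8% of all genes did. ABCG2 and AHR both lay near 0 upon GALNT3 KO and were called higher on the other arrays.

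Of 11 tested genes of the LXR, RXR and sterol response, 1 fell upon GALNT3 KO, where 5.53% of all genes were called lower. On the GALNT3/T6 KO-labelled arrays 4 rose and 5 fell, where 24.1% and 22.8% of all genes did. RXRA, the partner of the LXR receptors, gave -0.17 and -0.45, then -3.07 and -2.005 (limma adjusted p = 0.434 and 0.00194), and NR1H3 (LXR alpha) gave -0.80 and -0.78, then -1.50 and -0.68 (adjusted p = 0.0725 and 0.0119). APOE, the apolipoprotein, fell to -3.17 and -2.61 (adjusted p = 3.35e-04). SREBF1 fell in both groups, whereas NPC2, the lysosomal cholesterol carrier, rose to 2.09 and 2.73 and MYLIP, an LXR target, to 1.51 and 0.89. The list thus moved both ways.

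Platinum drugs also pass copper transporters, and 8 copper and platinum transporters were tested. Upon GALNT3 KO 1 rose, where 3.78% of all genes were called higher. Another 24.1% of all genes rose and 22.8% fell on the GALNT3/T6 KO-labelled arrays, and of the 8 transporters 5 rose and 0 fell there. SLC22A3, an organic cation transporter, gave 3.63 and 3.75 there (limma adjusted p = 7.32e-05) and was near background upon GALNT3 KO, and SLC31A2 gave 2.17 and 1.51 (adjusted p = 0.00156). ATP7B, a copper pump linked to platinum resistance, was called in both groups at similar values (0.46 and 0.49, then 0.42 and 0.43). SLC31A1, the copper importer, was not called.

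Partners of the other subfamilies were examined last, beside shares over all genes of 3.78% called higher and 5.53% lower upon GALNT3 KO. These shares were 24.1% and 22.8% on the GALNT3/T6 KO-labelled arrays. Of the 5 peroxisomal partners of the D genes, PEX19 (-0.70, -0.76, -0.65 and -0.70) and PEX3 (-0.74, -0.79, -0.29 and -0.76), which insert membrane proteins such as ABCD3 into peroxisomes, were called lower in both groups, and 0 rose. Of the 8 ribosome recycling and initiation partners, 1 rose upon GALNT3 KO, and 2 rose and 2 fell on the GALNT3/T6 KO-labelled arrays. The falls were those of GCN1, a partner of the stress kinase GCN2 (-2.36 and -1.39, limma adjusted p = 0.0107), and ETF1, the termination factor that precedes ABCE1 (-0.57 and -0.73, adjusted p = 0.00569). Of the potassium channel partners of ABCC8 and ABCC9, KCNJ11 was called there (0.45 and 0.49) and KCNJ8 was not.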

How the data were processed

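Two-channel Agilent arrays (4 on 1 slide) of 2 GALNT3 KO and 2 GALNT3/T6 KO clones, each against Ctrl, were analyzed; replicates are clones. The deposited intensity files, per the file headers from Feature Extraction 10.7.3.1 (8.5.1.1 in the submitters' processing notes) with probe coordinates on hg19, hold mean and background intensity of each spot; the deposited value table holds the authors' log10 ratio of red over green after Feature Extraction. Here limma 3.58.1 in R 4.3.3 corrected the background (normexp, offset 50), applied loess within arrays, left out 1639 control spots of 45015 and outlier-flagged spots, and averaged spots of a probe. For the signals of single channels, but not for the ratios, the mean of both channels was also scaled between arrays by quantiles. Of the spots, 86.9 to 93.8% per channel were well above background and 0 saturated; the number of arrays limits the precision, and p-values measure the spread between clones. Members and lists were chosen with earlier results of these data known. Named genes are ABCB1, ABCC1, ABCG2, ABCA1 and ABCG1, members called at an adjusted p of at most 0.05 and moving the same way on both arrays of the group (up to 30), and members whose probes disagree; a gene was read from its brightest probe. Alternatives were another background, normalization, filter or probe rule, the methods' t-test and each array left out. Benjamini-Hochberg adjustment ran over all 27219 genes. The fit was also run on simulated data, with independent noise of the spread of each gene and added shifts. That simulation held no dye effect and no difference between Ctrl RNAs, so it cannot measure those limits. Replicate arrays correlated at 0.826 and 0.916 over all genes. Some members are not reported here.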

Additional observations from a re-analysis of the deposited data

Results flagged for a closer look

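In 6 members the effects of the KO groups differed by the test of the difference itself (limma contrast on the log2 scale, arrays labelled GALNT3/T6 KO minus GALNT3 KO). These are 13.6% of the 44 members tested, where 23.6% of all genes were called. The 6 were picked by this contrast, so the separation of their arrays given below is no further support. ABCG2 differed by 2.29, higher on both arrays of the first group than on both of the second. ABCB8 differed by 0.92, again with no overlap. ABCE1 differed by -1.08, ABCB6 by -0.94, ABCA7 by -0.79 and ABCC4 by -0.77, each lower on both arrays labelled GALNT3/T6 KO. ABCG2 remained past the threshold in every alternative but the methods' t-test (adjusted p between 1.39e-05 and 0.0811); ABCC4 lost the call without either GALNT3 KO array and by that test, ABCB8, ABCE1 and ABCB6 also with median centring, and ABCA7 in addition with the replicate block. On these arrays the GALNT3 probe goes against the label.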

How the results depend on the processing

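Over all alternatives 0 of the calls of single members changed direction. Upon GALNT3 KO the reported counts are 0 higher and 7 lower, where 9.31% of all genes were called. Agilent's log ratios and the deposited table each gave 1 lower, where 2.18% and 2.19% of all genes were called. The spread from the arrays of the group alone gave 4 higher and 11 lower, where 4081 and 4514 of all genes were. By the methods' t-test 0 members were lower after adjustment (8 at an unadjusted p of at most 0.05), where 0 of all genes were. On the GALNT3/T6 KO-labelled arrays the reported counts are 9 higher and 17 lower, where 46.8% of all genes were called. Agilent's log ratios, the deposited table and median centring each gave 4 higher. In those settings 40.6%, 40.6% and 39.4% of all genes were called in either direction. The spread from the group alone gave 4 higher and 11 lower, where 3994 and 4371 of all genes were. The methods' t-test gave 0 and 0 (6 and 6 unadjusted), where 0 of all genes were called. Between the KO groups the reported counts are 2 higher and 4 lower, where 23.6% of all genes were called. Median centring gave 1 and 1, where 19% of all genes were called. The methods' t-test gave 0 and 0 (3 and 6 unadjusted), where 7 and 4 of all genes were. Leaving out 1 array at a time gave 0 to 4 higher and 0 to 11 lower upon GALNT3 KO, 4 to 9 higher and 11 to 15 lower on the GALNT3/T6 KO-labelled arrays, and 1 to 5 higher and 0 to 9 lower between the KO groups; the lone array left in a group was then assumed to vary like the other group. The cause of these shifts was not tested. With Agilent's log ratios (the deposited table in parentheses where it differs) the median log2 value upon GALNT3 KO was 0.00615 (0.00611) for all members, 0.22 for the other C genes, 1.69e-05 (4.98e-05) for the lipid transporters, -0.35 for the mitochondrial and lysosomal B genes, -0.18 for the D genes and 0.11 for the E and F genes. With Agilent's log ratios (the deposited table in parentheses where it differs) the median log2 value on the GALNT3/T6 KO-labelled arrays was -0.22 for all members, -0.0483 for the drug pumps, -0.33 for the lipid transporters, -0.25 for the mitochondrial and lysosomal B genes and -0.46 for the D genes. With Agilent's log ratios (the deposited table in parentheses where it differs) the median log2 value between the KO groups was -0.19 for all members, -0.15 for the lipid transporters, -0.40 for the mitochondrial and lysosomal B genes and -0.16 for the D genes. With median centring, the median log2 value upon GALNT3 KO was 0.0101 for all members and -0.33 for the E and F genes. With median centring, the median log2 value on the GALNT3/T6 KO-labelled arrays was -0.10 for all members, -0.16 for the other C genes, 0.0359 for the lipid transporters and -0.58 for the E and F genes. With median centring, the median log2 value between the KO groups was -0.0746 for all members and -0.10 for the lipid transporters. With the mean of all probes of a gene, the median log2 value upon GALNT3 KO was -0.00447 for all members and 0.0465 for the other C genes. With the mean of all probes of a gene, the median log2 value on the GALNT3/T6 KO-labelled arrays was -0.14 for all members. With the mean of all probes of a gene, the median log2 value between the KO groups was -0.0350 for the mitochondrial and lysosomal B genes. Without the filter on dim probes, the median log2 value on the GALNT3/T6 KO-labelled arrays was -0.0438 for all members and 0.0841 for the drug pumps. Without background correction, the median log2 value between the KO groups was -0.0725 for all members. With both channels required above background, the median log2 value on the GALNT3/T6 KO-labelled arrays was -0.0348 for the D genes. With both channels required above background, the median log2 value between the KO groups was 0.13 for the D genes. Leaving out 1 array at a time gave medians upon GALNT3 KO of -0.0340 to -0.00538 for all members and -0.00479 to 0.0503 for the lipid transporters. Leaving out 1 array at a time gave medians on the GALNT3/T6 KO-labelled arrays of -0.0856 to -0.0598 for all members, -0.00786 to 0.29 for the drug pumps and -0.0461 to 0.00298 for the lipid transporters. Leaving out 1 array at a time gave medians between the KO groups of -0.0797 to -0.0262 for all members, -0.30 to -0.0796 for the mitochondrial and lysosomal B genes, -0.10 to 0.10 for the D genes and -0.51 to -0.0505 for the E and F genes. The replicate number as a block gave 2 higher and 3 lower between the KO groups: ABCA7 lost its call (adjusted p = 0.0533), and none of the other 5 did. The numbers are not stated to mark shared parent clones, so whether they pair the arrays is not known. The deviations of the replicates from their group means correlated at -0.24 between the groups, which cannot decide it with 2 arrays per group. With the numbers crossed, an alternative chosen after seeing the data, 7 members were called and 7275 genes in all. Without a block these were 6 and 6431. The slide as a block could not be tried because all 4 arrays lie on 1 slide. With 2 clones per group, 1 Cy5 orientation and no array of Ctrl against Ctrl, the spread of Ctrl and any dye effect are unmeasured.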
